A study of Mus musculus with 8 samples.

Results

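The genes described here bind messenger RNA in male germ cells or control its polyadenylation, export or translation. They were Ybx2, Dazl, Boll, Cpeb1, Paip2, Papolb, Eif4g3, Pabpc1 and Nxf2, chosen by name, and the 9 genes were represented by 18 of the 45101 probe sets of the array. RNA of 8 testis samples from mice at postnatal day 23 was hybridized to Affymetrix Mouse430_2 arrays, with 1 array per sample. The labels name 5 samples wildtype (replicates 1, 2, 4, 6 and 7) and 3 samples CTCFL mutant (replicates 3, 5 and 8). CTCFL, also called BORIS, is a relative of the chromatin protein CTCF that is made in the testis. According to the study's text the mutants were homozygous for a Ctcfl deletion allele (del/del) and the control animals were heterozygous littermates (del/+), so that all animals may have carried the deletion on at least one chromosome. The name wildtype from the labels is kept here. The deletion was carried in every cell of the animal, and whole testis was measured, so that fewer cells of a type and less RNA per cell cannot be told apart. Nothing in the labels says whether the samples came from separate animals, and p-values then measure the spread between these samples.

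During spermiogenesis transcription stops as the nucleus condenses, and many mRNAs for late sperm proteins are made in advance, packaged with protein and translated days later. YBX2 coats such stored mRNAs. DAZL and BOLL are RNA-binding proteins of the DAZ family that promote translation, and CPEB1 recruits the machinery that lengthens cytoplasmic poly(A) tails. PAPOLB is a testis poly(A) polymerase, PABPC1 binds the poly(A) tail, and PAIP2 holds PABPC1 back from translation. EIF4G3 is a scaffold that joins the cap to the ribosome, and NXF2 is a germ cell member of the family of mRNA export receptors.

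The arrays differed among themselves more than the genotypes did. In a principal component analysis 44.9% of the variance lay on the first axis, where wildtype replicate 7 scored 40.2 and mutant replicate 8 scored 38.2, while the other arrays lay between -24.8 and -3.10. The same arrays had the highest levels of the markers of elongating spermatids, with a mean log2 level over 14 probe sets of 10.85 for wildtype replicate 7, of 10.18 for mutant replicate 8 and of 8.10 to 8.91 for the rest. This pair was picked out by its expression and not by a label. Fat cell markers moved with them, with means of 6.82 and 6.75 against 5.34 to 5.86. Values over the other 6 arrays are therefore given beside the results below. Spermatocyte markers had mean levels of 11.56 to 11.76 on the 8 arrays, whose median level over all probe sets was 6.40 to 6.45, and Ctcfl itself was not analysed here.

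Promoter windows from the RefSeq table (GRCm38.p6) were available for 7 of the 9 genes, in 11 windows that each ran from 250 bases before to 50 bases after an annotated start. The stretches before the start are shown for Nxf2, Cpeb1 and Boll, the genes with the largest differences between the genotypes below. They are written 5′ to 3′ on the strand of the gene, which is the minus strand for each, and capitals mark each whole match to an E-box (CACGTG) or the short form of a cyclic AMP response element (TGACG or, on the other strand, CGTCA).
Nxf2, chrX:134964755-134965004: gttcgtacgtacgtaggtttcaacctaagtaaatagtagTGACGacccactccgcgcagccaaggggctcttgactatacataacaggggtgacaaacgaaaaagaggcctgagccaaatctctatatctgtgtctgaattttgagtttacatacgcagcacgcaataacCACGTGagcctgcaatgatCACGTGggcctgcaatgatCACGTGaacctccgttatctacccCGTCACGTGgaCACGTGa
Cpeb1, chr7:81454759-81455008: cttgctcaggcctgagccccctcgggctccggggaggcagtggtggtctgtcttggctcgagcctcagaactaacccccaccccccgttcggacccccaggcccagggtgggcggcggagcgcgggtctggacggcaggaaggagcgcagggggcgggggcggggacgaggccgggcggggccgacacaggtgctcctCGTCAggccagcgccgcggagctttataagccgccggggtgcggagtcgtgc
Boll, chr1:55363754-55364003: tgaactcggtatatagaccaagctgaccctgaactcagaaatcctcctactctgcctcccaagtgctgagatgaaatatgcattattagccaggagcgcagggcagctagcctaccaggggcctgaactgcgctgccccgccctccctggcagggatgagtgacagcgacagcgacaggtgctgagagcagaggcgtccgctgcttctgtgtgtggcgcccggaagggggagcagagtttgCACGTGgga

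The window of Nxf2 shown here held 5 E-boxes, all of them before the start, and a CGTCA overlapped one of them, while a further window of the gene held none. An E-box was in 3 of the 11 windows of the members, and those of Cpeb1, where it lay after the start, and Boll, where it lay before, held 1 each. Of all 32851 promoter windows of this length, 7.15% held an E-box and 5 windows held at least as many. The E-box was added to the search after the Nxf2 window had been read. The short CRE form was found in 3 of the 11 windows of the members, 1 each of Nxf2, Cpeb1 and Dazl, and in 20.8% of all windows. The full palindrome TGACGTCA was in 0 of the 11 and in 1.79% of all windows. The core of a CTCF-like site was searched because CTCFL binds such sites, and was in 0 of the 11 windows and in 8.9% of all. A match is only a run of letters, and the arrays did not measure binding.

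The first question was whether loss of CTCFL alters the transcripts of these genes on a day that precedes the germ cell loss described by the study. None of the 18 probe sets passed an adjusted p of 0.05 with limma, as did 0 of all 45101 probe sets (0.0%), and the adjusted p was 1.0 for each. At an unadjusted p under 0.05 there were 2 of the 18, those of Nxf2 and Cpeb1, both higher in mutant testis, where the share over all probe sets was 3.47% in either direction, 1.76% higher and 1.7% lower. Without the arrays that stand apart only Nxf2 was left, 1 of the 18, against 6.55% of all (3.51% higher and 3.05% lower). With these arrays as a block there were 3 of the 18, Nxf2 and Cpeb1 higher and Boll lower, against 5.86% of all (3.03% higher and 2.83% lower), and 0 of the 18 passed the adjusted threshold with limma, against 0.00222% of all. The values of the 5 wildtype and 3 mutant arrays did not overlap for 1 of the 18, a probe set of Boll that was lower in mutant testis, and for 2.7% of all (1.38% higher and 1.31% lower). The members' changes ran from -0.14 to 0.27 on the log2 scale, with 10 higher and 8 lower and a median of 0.0073, against a median of 0.0032 over all probe sets. All 18 probe sets had a mean level above that of the median probe set, so none was lost to a filter on dim probe sets. Exact permutation tests were run for 9 main probe sets, 1 per gene. The smallest p that 5 against 3 arrays allow, two-sided, is 0.0357.

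Nxf2, the export receptor, had the largest difference of the 9 genes. Its log2 level was 8.81, 8.68, 8.62, 8.65 and 8.62 on wildtype replicates 1, 2, 4, 6 and 7, and 8.91, 9.16 and 8.78 on mutant replicates 3, 5 and 8. Mutant replicates 3 and 5 lay above every wildtype array, while mutant replicate 8 lay just below wildtype replicate 1. The means were 8.68 ± 0.08 (SD, n = 5) and 8.95 ± 0.20 (SD, n = 3), a difference of 0.27 (SE 0.09, 95% interval 0.064 to 0.48), or 1.21-fold. Nxf2 ranked 367 of all probe sets by p, with an unadjusted limma p of 0.0154, an adjusted p of 1.0 and an exact permutation p of 0.0714. Without wildtype replicate 7 and mutant replicate 8 the difference was 0.34 (SE 0.10), with a limma adjusted p of 0.751. It rested in part on mutant replicate 5, without which it was 0.17 with an unadjusted limma p of 0.0837.

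Cpeb1, the poly(A) tail regulator, was the other member at an unadjusted p under 0.05. Its level was 7.64, 7.72, 7.40, 7.46 and 7.52 on the wildtype arrays in the same order, and 7.70, 7.86 and 7.68 on the mutant arrays. The groups overlapped, since wildtype replicate 2 lay above mutant replicates 3 and 8. The difference was 0.20 (SE 0.09, 95% interval 0.0020 to 0.39), with an unadjusted limma p of 0.0481 and an exact permutation p of 0.107. It was 0.23 without the arrays that stand apart. Without wildtype replicate 4, 6 or 7 or mutant replicate 3 or 5 the unadjusted limma p was above the threshold, at 0.0659 to 0.186.

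Boll, the most ancient of the DAZ family genes, was read by 4 probe sets that did not move together. On 1456842_at, its main probe set, the level was 10.32, 10.43, 10.30, 10.27 and 10.48 on the wildtype arrays and 10.19, 10.23 and 10.23 on the mutant arrays. Even the lowest wildtype value was above the 3 mutant values. The difference was -0.14 (SE 0.07, 95% interval -0.30 to 0.014), with an unadjusted limma p of 0.0694 and an exact permutation p of 0.0357. On 1432529_at the difference was 0.19 (SE 0.09), in the opposite direction, and on 1427599_at and 1432530_s_at it was -0.028 (SE 0.12) and -0.048 (SE 0.10). Over 6 arrays the difference was -0.12 (SE 0.08) on 1456842_at, 0.052 on 1432529_at, 0.033 on 1427599_at and 0.019 on 1432530_s_at. No direction is therefore given for the gene. The probe sets also parted on the arrays that stand apart. On wildtype replicate 7, 1456842_at was 0.15 above the mean of the other wildtype arrays, while 1427599_at, 1432529_at and 1432530_s_at differed from it by -0.26, -0.23 and -0.21. On mutant replicate 8, 1427599_at and 1432530_s_at differed by -0.34 and -0.33 from the mean of the other mutant arrays, and 1432529_at by 0.27.

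**Figure D1:**
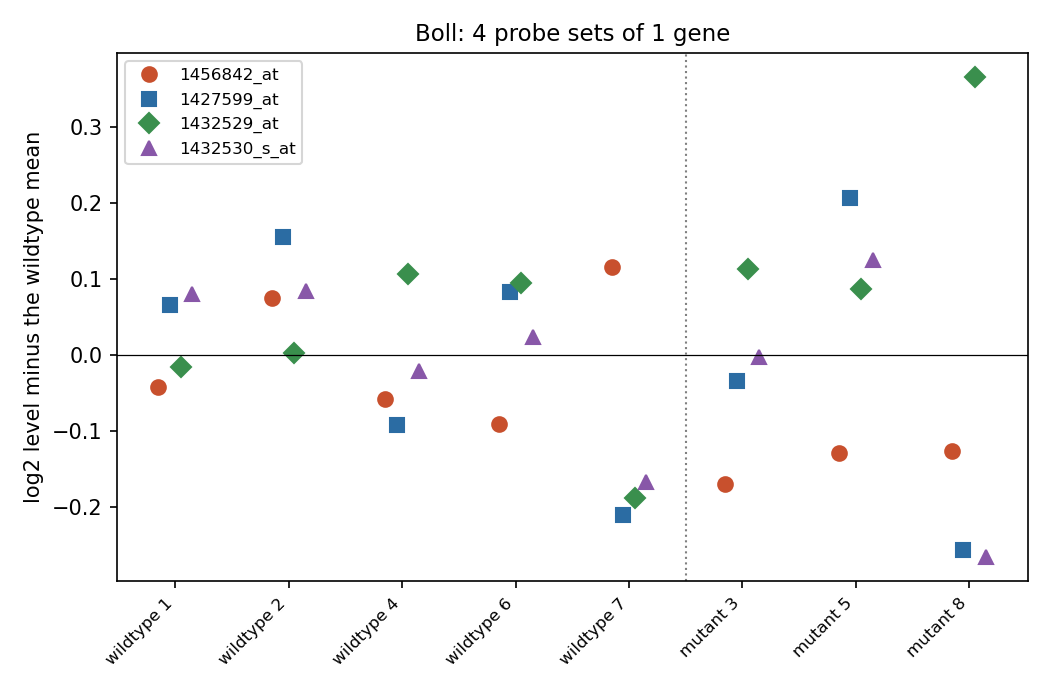
Log2 level of 4 Boll probe sets on each array (y axis), relative to the mean of the 5 wildtype arrays, with the arrays along the x axis and the genotypes parted by a dotted line. The main probe set 1456842_at lies below 0 on the 3 mutant arrays, while 1432529_at lies above 0 on each of them.

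Dazl, the other DAZ family member, differed little between the groups. On its main probe set 1449502_at the level was 12.21, 12.38, 12.09, 12.09 and 12.10 on the wildtype arrays and 12.20, 12.16 and 12.001 on the mutant arrays, with the highest value on wildtype replicate 2 and the lowest on mutant replicate 8. The difference was -0.054 (SE 0.09, 95% interval -0.25 to 0.14), and that of its other probe set was -0.057 (SE 0.07). Both were smaller than the spread between wildtype arrays (SD 0.12 and 0.08), and over 6 arrays they were -0.013 and -0.025.

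Ybx2, which coats stored mRNA, had 1 probe set, which the table also assigns to another locus identifier. Its level was 13.05, 12.86, 13.08, 13.09 and 13.14 on the wildtype arrays and 13.03, 12.94 and 13.31 on the mutant arrays. Within each genotype the highest value was on the array rich in spermatid markers. The difference was 0.048 (SE 0.10, 95% interval -0.17 to 0.27), and it was -0.035 without these arrays, so that its sign depends on them.

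The main probe sets of Papolb, Pabpc1 and Paip2, which make or bind the poly(A) tail or act on its binding protein, each differed between the groups by less than the SE. Papolb, the testis poly(A) polymerase, had levels of 11.43, 11.35, 11.48, 11.44 and 11.54 on the wildtype arrays and 11.38, 11.65 and 11.51 on the mutant arrays for its main probe set. Its probe sets differed by 0.067 (SE 0.08) and -0.068 (SE 0.07), in opposite directions, so no direction is given, and by 0.090 and -0.057 over 6 arrays. Pabpc1, the poly(A) binding protein, had levels of 14.35, 14.37, 14.37, 14.32 and 14.25 on the wildtype arrays and 14.30, 14.33 and 14.36 on the mutant arrays. Its difference was -0.0055 (SE 0.06, 95% interval -0.14 to 0.13), the narrowest interval among the members, and that of its other probe set was 0.0059 (SE 0.09). Over 6 arrays they were -0.043 and 0.055. Probe sets of Pabpc1 may share signal with its close copies. Paip2, its inhibitor, had levels of 10.13, 10.24, 10.13, 10.09 and 10.13 on the wildtype arrays and 10.18, 10.36 and 10.07 on the mutant arrays. The difference was 0.061 (SE 0.08, 95% interval -0.11 to 0.24), and mutant replicates 5 and 8 were the highest and the lowest of the 8 arrays. Without wildtype replicate 7 and mutant replicate 8 it was 0.13 (SE 0.09).

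Eif4g3, the translation initiation scaffold, had 4 probe sets with differences of -0.015 to 0.024. On the main one, 1426833_at, the level was 11.43, 11.43, 11.49, 11.49 and 11.59 on the wildtype arrays and 11.40, 11.42 and 11.60 on the mutant arrays. Wildtype replicate 7 and mutant replicate 8 were again the highest of their genotypes, and the difference was -0.015 (SE 0.07, 95% interval -0.18 to 0.15). Over 6 arrays the differences ran from -0.084 on 1446145_at to 0.048 on 1430578_at, with -0.053 on the main probe set.

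**Figure D2:**
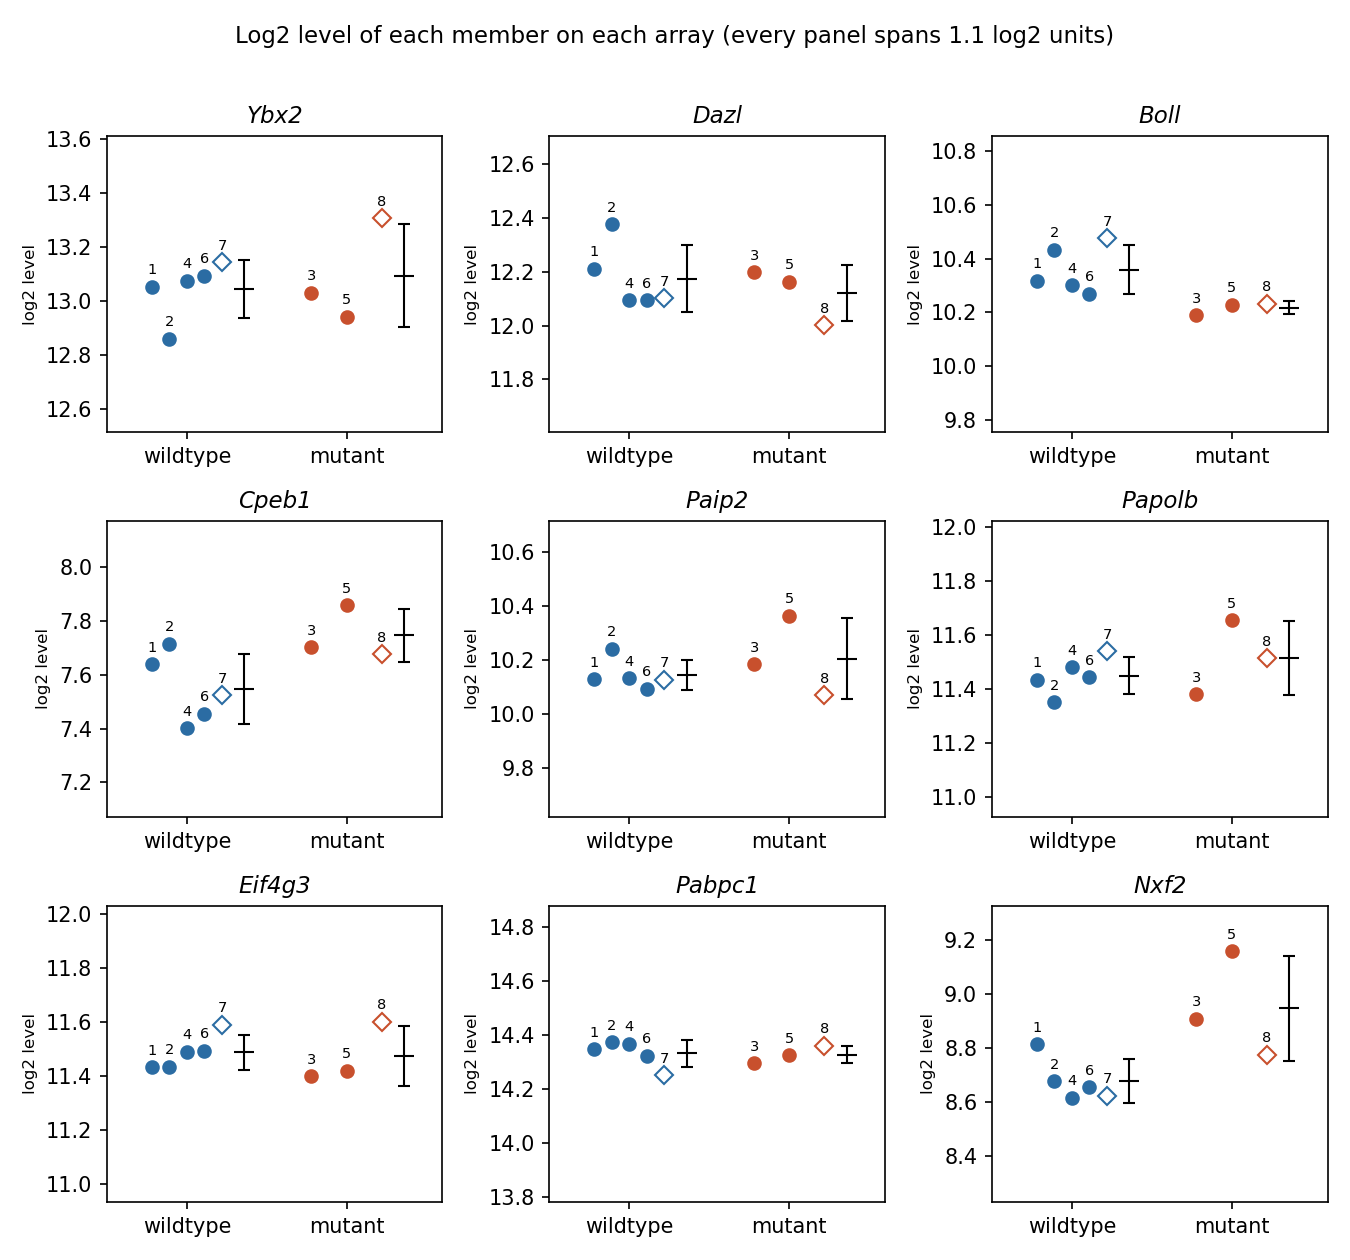
Log2 level (y axis) of the main probe set of each gene on the 5 wildtype (blue) and 3 mutant (orange) arrays, numbered by replicate, with mean and SD as black bars. Open diamonds are wildtype replicate 7 and mutant replicate 8. Each panel spans the same range, so that the heights can be compared, and Nxf2 shows the largest gap between means, at 0.27.

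The members were next compared with the mRNAs that are stored in spermatids before translation. Over the 8 arrays the main probe sets of the members had an SD of 0.042 to 0.19 with a median of 0.10, close to the median of 0.13 over all probe sets. For 14 stored mRNAs, among them those of the protamines (Prm1, Prm2) and transition proteins (Tnp1, Tnp2) that replace histones in sperm, the SD was 0.087 to 1.77 with a median of 0.63. Prm1 had levels of 8.20, 8.998, 9.41, 9.10 and 12.12 on the wildtype arrays and 8.55, 8.14 and 11.55 on the mutant arrays. Wildtype replicate 7 was the highest wildtype array for 26 of the 30 probe sets of stored mRNAs, for 5 of the 18 of the members and for 8903 of all 45101. These spreads are given as a description and were not tested. By the rule that a member needs an SD of 0.3 over the 8 arrays before genes of like pattern are named, no member qualified.

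**Figure D3:**
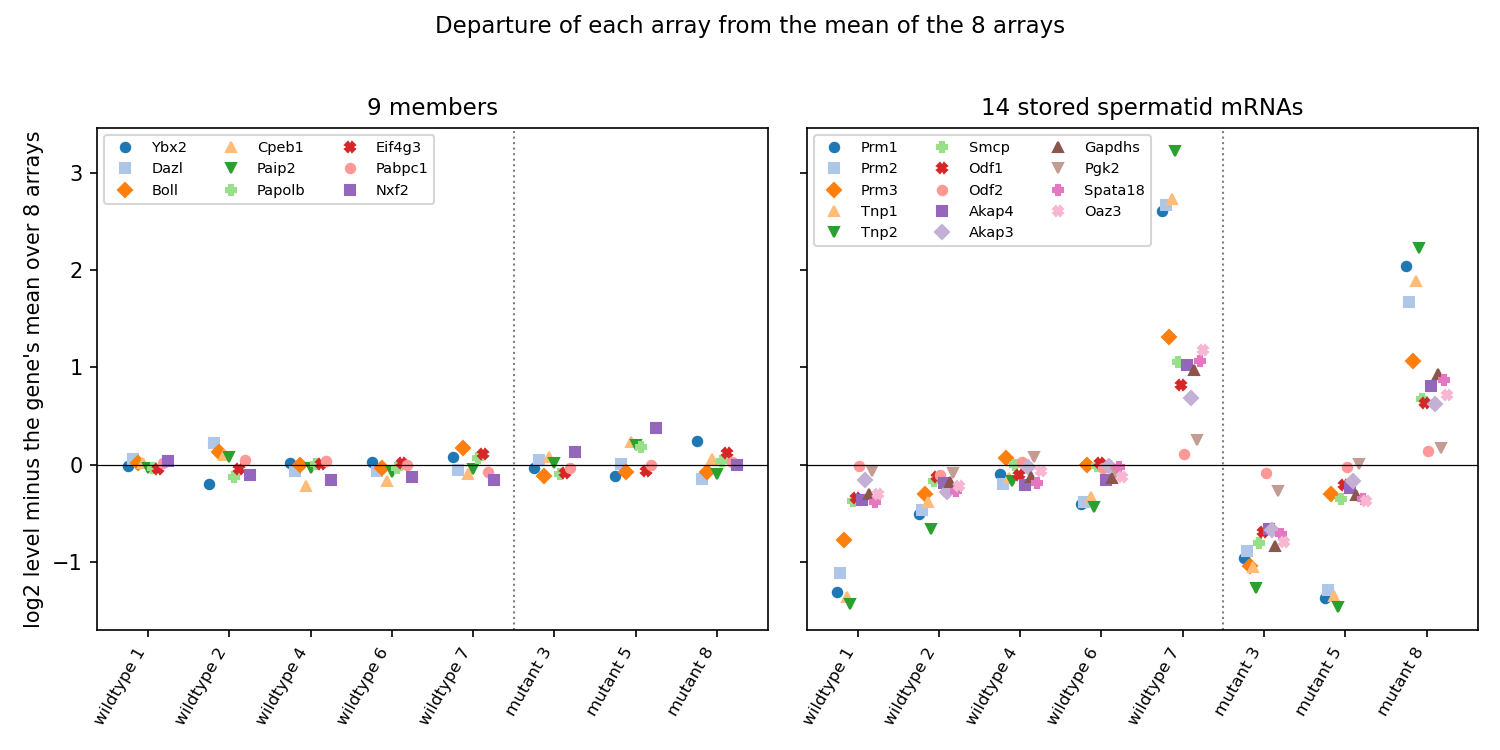
Log2 level of each array minus the mean of the 8 arrays (y axis) for the main probe sets of the 9 members (left) and of 14 stored spermatid mRNAs (right), on a shared scale, with the arrays along the x axis. The members stay near 0 on every array, with SDs of at most 0.19, while most of the stored mRNAs lie highest on wildtype replicate 7 and mutant replicate 8, with SDs of up to 1.77.

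Between the genotypes, the stored mRNAs had a median difference of -0.14 over 30 probe sets, 25 of them lower and 5 higher, and 0 were at an unadjusted limma p under 0.05. Smcp differed by -0.26 (SE 0.37), Oaz3 by -0.25 (SE 0.39) and Pgk2 by -0.053 (SE 0.11). Without the arrays that stand apart the median was -0.31 and 11 of the 30 were at an unadjusted p under 0.05, where the share over all probe sets was 6.55%. With these arrays as a block it was -0.30 with 19 of 30, against 5.86% of all, and 0 of the 30 passed an adjusted p of 0.05 with limma. All 7 marker genes of elongating spermatids used here are among these 14 genes, so the marker level and the list are not separate measures. The arrays left out or blocked were picked by expression and are those where most of these mRNAs were highest. The 11 and 19 of 30 are therefore a description, and the shares over all probe sets are no fair measure for them.

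The paralogs of the members were compared to see whether a change was shared within a family. Their probe sets had a median difference of -0.033, or -0.019 over 6 arrays, with 15 higher and 31 lower in mutant testis. Of 46 probe sets of 19 paralogs, 0 passed the adjusted threshold with limma and 1 (2.17%) was at an unadjusted p under 0.05, against 3.47% of all probe sets. It was that of Cpeb2. This other CPEB protein had levels of 10.57, 10.50, 10.37, 10.35 and 10.52 on the wildtype arrays and 10.42, 10.21 and 10.03 on the mutant arrays. Its difference was -0.24 (SE 0.10), the opposite sign to Cpeb1, with an unadjusted limma p of 0.0301 and an adjusted p of 1.0, and without the arrays that stand apart it was -0.13 with an unadjusted limma p of 0.208, so that 0 of the 46 were left. Cpeb4 differed by -0.11 (SE 0.08) and Ybx3, a relative of Ybx2, by -0.086 (SE 0.07). Ybx1, another relative, differed by -0.041 (SE 0.06) on its main probe set, without overlap between the groups. Of all probe sets, 1.31% were lower in mutant testis without overlap. In the family of Nxf2, the general export receptor Nxf1 differed by 0.019 (SE 0.12), Nxf3 by 0.13 (SE 0.18) and Nxf7 by -0.10 (SE 0.11). The Nxf7 probe set was dim, with levels of 3.59 to 4.05, below that of the median probe set. Whether Nxf2 differed from them was not tested. The general poly(A) polymerase Papola differed by -0.015 (SE 0.09) and the general scaffold Eif4g1 by 0.089 (SE 0.07).

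**Figure D4:**
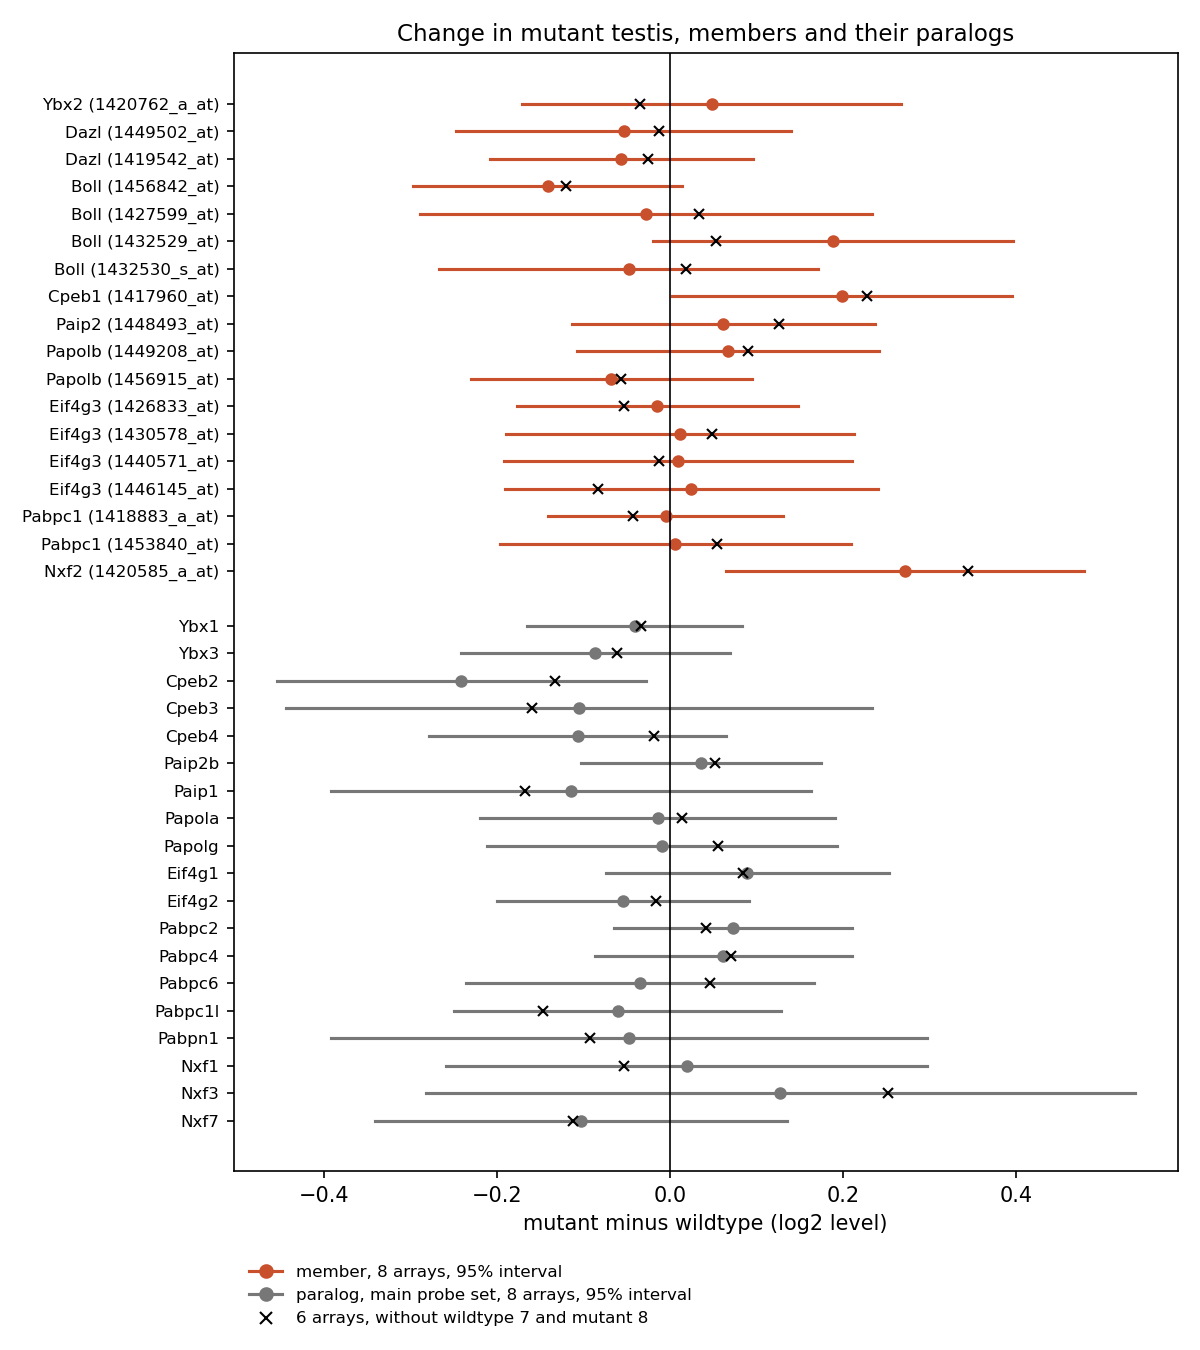
Mutant minus wildtype difference in log2 level (x axis) for the 18 probe sets of the members (orange) and the main probe sets of 19 paralogs (grey). Points and lines are the value and its 95% interval over 8 arrays, and crosses are the value over 6 arrays, without wildtype replicate 7 and mutant replicate 8. The intervals of Nxf2, Cpeb1 and Cpeb2 do not reach 0 before adjustment.

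Other genes of the same processes were taken from lists. Of 39 probe sets of 12 genes of the cap-binding complex and its regulators, 2 (5.13%) were at an unadjusted p under 0.05, against 3.47% of all probe sets. Both were of Eif4ebp2, an inhibitor of cap-dependent translation, with differences of 0.17 and 0.27 among 5 probe sets that ran from -0.018 to 0.27. Over 6 arrays these were 0.11 and 0.20, and 0 of the 39 were at that threshold, where the lower of their unadjusted limma p-values was 0.140. The genes leading by p on their main probe set, Eif4enif1, Eif4e2 and Eif4ebp1, differed by 0.079, 0.072 and 0.066. Of 43 probe sets of 20 genes of poly(A) tail control, 1 (2.33%) was at that threshold, against 3.47% of all. It was of Cnot6l, a deadenylase subunit, with 0.29, and over 6 arrays it was 0.30 with an unadjusted limma p of 0.0648. Cnot7 differed by 0.14, Cnot6 by -0.065 and Pan2 by 0.081. Over 6 arrays 2 of the 43 were at that threshold, against 6.55% of all. Among them was Cnot7, at 0.25 with an unadjusted limma p of 0.0455. The medians of these lists were 0.0061 and 0.014, and 0.019 and 0.037 over 6 arrays.

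Of 67 probe sets of 24 genes of germ cell mRNA-protein particles, 2 (2.99%) were at an unadjusted p under 0.05, against 3.47% of all probe sets. They were those of Ddx4, the germ cell RNA helicase also called Vasa, which differed by -0.19 (SE 0.07) without overlap between the groups, and of Khdrbs1, also called Sam68, where 1418629_a_at differed by -0.20 (SE 0.08). Of all probe sets, 1.31% were lower and 1.38% higher in mutant testis without overlap. Khdrbs1 had 7 probe sets with differences from -0.20 to 0.082, 4 of them lower, so no direction is given for the gene. Over 6 arrays both left the threshold, with -0.14 and an unadjusted limma p of 0.119 for Ddx4 and -0.18 and 0.0781 for the Khdrbs1 probe set. Other probe sets of the list entered, and 2 of the 67 were at the threshold over 6 arrays, against 6.55% of all. Khdrbs3 differed by -0.15 (SE 0.08). The median of the list was -0.027 and turned to 0.021 over 6 arrays. Of 38 probe sets of 14 genes of mRNA export, 6 were at that threshold, 4 of Ddx39a and 1 each of Chtop and Thoc1, all lower in mutant testis, where 1.7% of all probe sets were lower at that threshold. The main probe set of Ddx39a was not among them. Chtop differed by -0.16 (SE 0.06), Rae1 by 0.12 (SE 0.06) and Ddx19b by -0.17 (SE 0.10), and the median was -0.023, or -0.029 over 6 arrays. The 5 probe sets of Thoc1 ran from -0.22 to 0.038. As for Ddx4, the groups did not overlap for Chtop, Rae1, the Thoc1 probe set at the threshold and some probe sets of Ddx39a. Over 6 arrays Chtop and the Thoc1 probe set left the threshold, with -0.16 and an unadjusted limma p of 0.0804 and with -0.13 and 0.143, while the 4 of Ddx39a stayed past it. Ddx19b entered, at -0.20 with an unadjusted limma p of 0.0433, so that 5 of the 38 were past it, all lower. Over 6 arrays 6.55% of all probe sets were past it, 3.05% lower. With the arrays that stand apart as a block, 8 of the 38 and 5 of the 67 were past it, against 5.86% of all. For the cap and poly(A) lists the block gave 2 each. Over the 8 arrays none of these probe sets passed the adjustment over all probe sets, with a limma adjusted p of 1.0 for each.

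Markers of other testis cells were measured beside these results. The spermatogonia markers had a median difference of 0.094 over 13 probe sets, the Sertoli markers 0.086 over 14, the Leydig markers 0.14 over 11, the macrophage markers 0.011 over 7 and the peritubular markers 0.011 over 9. The spermatocyte markers had a median of -0.11 over 8 probe sets, the round spermatid markers -0.050 over 11, the elongating spermatid markers -0.25 over 14 and the fat markers -0.098 over 11. Over 6 arrays the medians were 0.10 for spermatogonia, 0.15 for Sertoli, 0.30 for Leydig, 0.13 for macrophage, 0.068 for peritubular, -0.095 for spermatocyte, -0.12 for round spermatid, -0.44 for elongating spermatid and -0.24 for fat markers. The mean level of the spermatogonia markers was 7.31 to 7.47 on wildtype and 7.38 to 7.54 on mutant arrays, with the highest values on mutant replicates 3 and 5, which also had the highest levels of Nxf2. The Sertoli markers were likewise highest on these arrays, with means of 9.58 and 9.47 against at most 9.39 on the others. The mean of the spermatocyte markers was 11.56 to 11.66 on mutant arrays, below the 11.69 to 11.76 of every wildtype array. The single markers did not all go this way, since 5 of the 8 probe sets were lower and 3 higher in mutant testis. The main probe sets of Ldhc and Ccna1 were higher, by 0.0039 and 0.068. The part of cell composition in the differences of Nxf2, Cpeb1 and Boll was not tested.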

How the data were processed

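The authors' methods state that the scanned arrays were handled in R/Bioconductor, with RMA for background correction and normalization. The deposited table gave log2 levels on 8 arrays for 45101 probe sets, 64 of them controls, and between arrays the sorted values differed by at most 0.11. The authors' own fold changes and p-values, in columns of that table and in further tables, were not used. Software versions and the build of the annotation are not given in the sources used here. Columns were matched to samples through the genotype and replicate number in the titles.

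Entrez IDs were looked up in RefSeq (GRCm38.p6). Of the 38810 probe sets with an ID, 91.5% were matched there, and 34671 probe sets matched 1 gene and were assigned to it. The main probe set of a gene was one without an s or x suffix where possible, then that with the highest mean. No probe set was filtered out. The fit was lmFit with eBayes (limma 3.58.1 under R 4.3.3), with two-sided p-values adjusted over all probe sets by Benjamini-Hochberg. Exact permutation tests over the 56 splits of the arrays used scipy 1.17.1 in Python 3.11.15. On simulated arrays with 200 changed probe sets among 45101, 90 of the 100 changed by 1 on the log2 scale were called. The simulated noise was independent between probe sets, without the differences that real arrays share. The members differed by at most 0.27, so this share does not apply to changes of their size. The number of arrays limits the precision.

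The members and lists were chosen with earlier results of these data known. The text names every member and, per list, genes past the adjusted threshold or otherwise up to 3 genes with the lowest p on the main probe set. Eif4ebp2, Cnot6l, Thoc1, Ddx39a, Prm1 and the further paralogs were named after their values were seen. Of the list genes, Eif4ebp3, Nanos2, Nanos3, Sarnp, Hormad1, Insl3 and Plin1 matched no probe set by this rule. Alternatives were leaving out each array, leaving out wildtype replicate 7 with mutant replicate 8 or blocking them, median centring, repeated quantile normalization, an offset of 64 on the linear scale, probe sets above the median level, an intensity trend with robust eBayes, a comparison without shared variance, array weights, other probe sets of a gene and 1 probe set per gene. A planned comparison of protein sequences was not made.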

Additional observations from a re-analysis of the deposited data

Results flagged for a closer look

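Of 49 measures, 8 had 1 of the 5 wildtype arrays far from its group, where chance gives about 1 in 20, or 2.45 here. Of the members, Paip2 stood at 10.24 on wildtype replicate 2, with the next array at 10.13, and the probe set 1453840_at of Pabpc1 had 8.63 on the same array against 8.41. The other 6 were all on wildtype replicate 7. Smcp had 11.62 against 10.57, Oaz3 10.60 against 9.35, Prm2 11.40 against 8.53 and Tnp2 11.59 against 8.20. The mean of the elongating spermatid markers was 10.85 against 8.91, and that of the fat markers was 6.82 against 5.86. These last 6 measures overlap and are not separate findings, and the 3 mutant arrays were not examined in this way. Wildtype replicate 7 had already been picked out by its expression, so the 2.45 is no fair measure for these 6.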

How the results depend on the processing

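No paired analysis was possible. The study's text calls the animals littermates, but the labels name no litter, and the replicate numbers run once over all samples. No member probe set passed an adjusted p of 0.05 with limma under any alternative run. Over all probe sets the count was 0 except with the block, which gave 1. Nxf2 and Cpeb1 kept their sign under all 17 alternatives each, from 0.17 to 0.36 and from 0.14 to 0.24. The count of 2 member probe sets at an unadjusted p under 0.05 was 1 without both arrays that stand apart and 1 with median centring, and 0 to 2 leaving out 1 array, with 0 without mutant replicate 5. It was 3 with the block and 3 with the offset, where the main probe set of Boll was added (unadjusted limma p 0.0493 and 0.0254). With the intensity trend and robust eBayes, Boll was under the threshold in place of Cpeb1 (unadjusted limma p 0.0466 and 0.0557). The same exchange occurred without shared variance. The count of 1564 over all probe sets was 2956 without both arrays, 2644 with the block, 580 when each gene had 1 probe set and 707 among the brighter probe sets, both of which tested fewer, and 1220 to 2649 leaving out 1 array, the last without mutant replicate 8. Ybx2 reversed to -0.035 without both arrays and ranged from -0.059 to 0.12 leaving out 1 array. Boll reversed to 0.19 on 1432529_at and Papolb to -0.068 on 1456915_at. On its main probe set Boll ranged from -0.16 to -0.11 leaving out 1 array. Eif4g3 reversed to 0.0065 and Pabpc1 to 0.0087 with repeated quantile normalization, and on other probe sets to 0.011, 0.0087 and 0.024 for Eif4g3 and 0.0059 for Pabpc1. Leaving out 1 array, the ranges were -0.093 to 0.0056 for Dazl, -0.018 to 0.13 for Paip2, -0.0026 to 0.13 for Papolb, -0.079 to 0.022 for Eif4g3 and -0.026 to 0.010 for Pabpc1. The cause was not tested.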

Other observations

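Of the 6 probe sets of mRNA export genes at an unadjusted limma p under 0.05, 4 belonged to Ddx39a, an RNA helicase that loads export factors on mRNA. All 5 of its probe sets were lower in mutant testis, by differences of -0.33 to -0.071. The smallest difference, -0.071, was that of its main probe set, which was not at that threshold. On 1451065_a_at, 1455814_x_at and 1438168_x_at the differences were -0.33 (SE 0.09), -0.27 (SE 0.07) and -0.23 (SE 0.07). The groups did not overlap on these 3, where 1.31% of all probe sets were lower in mutant testis without overlap. Without the arrays that stand apart the differences were -0.29, -0.26 and -0.23. The remaining probe set of the 4, 1438287_x_at, was dim, with levels of 4.16 to 4.44, below that of the median probe set. The x suffix marks probe sets that can share probes with other transcripts, and the probe sets of 1 gene are not independent. The limma adjusted p was 1.0 for each, and the gene was picked after its values were seen.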
